A study of Mus musculus with 11 samples.

Results

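The mouse genes described here were 10 genes that write, copy, protect or remove DNA methylation, and they were 10 of the 27179 genes with counts in each library. They were taken by symbol and comprise the imprint readers Zfp57 and Zfp445, their corepressor Trim28, the maintenance genes Dnmt1 and Uhrf1, the de novo methyltransferases Dnmt3a and Dnmt3b, and the oxygenases Tet1, Tet2 and Tet3. Zfp57 was selected on its lower counts in affected embryos. Its levels in comparisons with affected embryos are therefore given as a description with no test, while the other 9 genes were taken for their function. RNA was measured in brains of C57BL/6 embryos, dissected to the rear edge of the otic vesicle (the primordium of the inner ear), at embryonic day 9.5, 1 library per embryo. The groups were 4 affected females labelled p53-/- Bim+/-, 4 control males labelled p53-/- Bim+/-, and 3 control females labelled p53+/+ Bim+/-. All embryos thus carry the Bim+/- label, and they came from intercrosses of single mutants of p53, a tumour suppressor, and Bim, a protein that promotes cell death. Affected females differ from control females in p53 genotype as well as in being affected, and from control males in sex as well as in being affected, and the labels do not say how the affected embryos were affected.

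In mammals, methyl groups are set on cytosines of CpG dinucleotides by Dnmt3a and Dnmt3b, and are copied to the new strand after replication by Dnmt1, which Uhrf1 brings to hemimethylated DNA. Tet enzymes oxidise the methyl group, which leads to its loss. Imprinted genes keep a methyl mark on the copy from one parent through early development, and Zfp57 and Zfp445, zinc finger proteins with a KRAB domain, bind marked control regions and recruit Trim28 (also called KAP1) and with it the methyltransferases and heterochromatin enzymes.

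Libraries held 8211942 to 11218682 counts. Levels are given as CPM, for which TMM put the libraries on one scale. Each fold change has its standard error (SE) and an adjusted p from the quasi-likelihood test of edgeR, where the adjustment by Benjamini-Hochberg covered all 14542 genes tested and a gene was called under 0.05. All 10 genes passed the filter on low counts, and the lowest count of any of them in a library was 179 (Tet2). Each replicate is labelled as an embryo of its own, no litter or batch is given, and p-values measure the spread between these embryos. Ccng1, a p53 target, had 21.8 to 24.5 CPM in affected females and 27.5 to 33.5 CPM in control males, against 74.7 to 93.8 CPM in control females. Trp53 itself did not separate the groups (107 to 139 CPM in affected females, 112 to 132 in control males, 105 to 125 in control females), so its counts do not check the p53 label. Bcl2l11, which encodes Bim and has the same label in all groups, had 38.2 to 47.3 CPM in affected females and 36.0 to 47.7 CPM in control males, against 71.0 to 82.1 CPM in control females. Whether the Bim genotype of the control females was that of the other groups was not tested. A pair of control libraries stood apart in several genes below: control male 4 lay toward the affected females, and for some genes so did control female 1, which also held 96.3 CPM of the heat shock gene Hspa1b, against at most 1.91 CPM in every other library. They were set apart by earlier results of these data for lying toward the affected females. Values without them, given below, show what they weigh. Leaving them out widens differences by construction in genes where they lie toward the affected females, and supports no call. Not all differences widened: against control females the log2 fold change of Tet2 went from -1.08 to -0.92 and that of Dnmt3a from 0.28 to 0.25. Xist, the RNA of the silenced X chromosome, had 1435 to 2167 CPM in affected females and 8.72 to 13.2 CPM in control males, against 4391 to 5959 CPM in control females. Mitochondrial genes took 1.31% to 1.69% of counts in affected females, against 2.06% to 3.82% in control males and 2.48% to 4.99% in control females, and the part of this difference in the results was not tested. Counts from whole tissue cannot tell fewer cells of a type from less RNA per cell.

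The windows around the starts of Zfp57, Tet2 and Dnmt3b are shown because Zfp57 and Tet2 had the lowest fold values of the 10 genes in affected embryos and Dnmt3b the highest, against either control group, while their CpG contents lie far apart. Sequences are from RefSeq on GRCm38.p6, cover 250 bases before to 50 bases from each annotated start, are written 5′ to 3′ on the strand of the gene, and carry CpG dinucleotides in capitals.
Zfp57 window 1 (chr17:37000913-37001212, + strand): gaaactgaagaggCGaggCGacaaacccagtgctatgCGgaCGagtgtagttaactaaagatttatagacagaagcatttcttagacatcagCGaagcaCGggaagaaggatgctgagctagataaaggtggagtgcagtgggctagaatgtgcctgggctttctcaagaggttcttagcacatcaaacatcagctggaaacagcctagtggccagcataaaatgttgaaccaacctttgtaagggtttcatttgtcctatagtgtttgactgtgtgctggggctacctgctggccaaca
Zfp57 window 2 (chr17:37002275-37002574, + strand): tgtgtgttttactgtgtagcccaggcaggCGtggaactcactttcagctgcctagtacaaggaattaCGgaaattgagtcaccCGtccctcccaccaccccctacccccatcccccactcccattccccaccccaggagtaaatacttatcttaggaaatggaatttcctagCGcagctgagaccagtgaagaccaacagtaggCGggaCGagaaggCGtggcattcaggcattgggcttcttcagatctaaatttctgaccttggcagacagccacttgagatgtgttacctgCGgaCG
Zfp57 window 3 (chr17:37003416-37003715, + strand): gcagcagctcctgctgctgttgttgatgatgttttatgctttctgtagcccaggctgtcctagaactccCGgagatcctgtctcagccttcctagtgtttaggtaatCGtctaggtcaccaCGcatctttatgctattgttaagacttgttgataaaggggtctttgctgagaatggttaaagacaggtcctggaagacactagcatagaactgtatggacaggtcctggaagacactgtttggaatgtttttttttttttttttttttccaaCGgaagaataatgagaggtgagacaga
Tet2 (chr3:133544341-133544640, - strand): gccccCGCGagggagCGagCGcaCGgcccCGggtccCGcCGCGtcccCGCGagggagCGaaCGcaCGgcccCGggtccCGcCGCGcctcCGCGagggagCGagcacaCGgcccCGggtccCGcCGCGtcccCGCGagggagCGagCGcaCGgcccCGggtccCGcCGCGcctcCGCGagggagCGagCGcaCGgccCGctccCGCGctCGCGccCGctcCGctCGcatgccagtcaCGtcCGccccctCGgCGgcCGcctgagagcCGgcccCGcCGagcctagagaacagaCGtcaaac
Dnmt3b (chr2:153649199-153649498, + strand): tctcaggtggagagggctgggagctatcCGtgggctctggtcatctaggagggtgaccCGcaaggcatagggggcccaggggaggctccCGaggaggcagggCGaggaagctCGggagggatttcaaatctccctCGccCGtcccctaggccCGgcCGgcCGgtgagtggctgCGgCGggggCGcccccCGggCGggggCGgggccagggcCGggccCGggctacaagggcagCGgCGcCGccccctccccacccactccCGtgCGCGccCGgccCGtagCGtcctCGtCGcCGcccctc

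The 3 Zfp57 windows held 6, 9 and 4 CpGs, near the median of 7 over 32851 windows of 27025 genes (quartiles 3 and 20). The Tet2 window held 57 CpGs, more than 99.8% of all windows, and the Dnmt3b window held 30. Windows were found for all 10 genes. The single windows of Zfp445, Trim28, Tet1 and Tet3 held 10, 23, 17 and 22 CpGs, and the alternative starts of Dnmt1, Dnmt3a and Uhrf1 spanned 2 to 33, 18 to 47 and 12 to 33 CpGs. The letters TGCCGC, the core of the motif that ZFP57 binds when methylated, were searched on both strands and were found in windows of Trim28, Dnmt3a and Tet3, and in 11.6% of all windows. An E2F-type motif, TTTGGCGC, was found in 1 window, of Dnmt1 (0.514% of all windows), and another, TTTCCCGC, in no window of these genes (1.07% of all). The p53 half-site was in no window of these genes and in 8.36% of all. No methylation was measured in these embryos.

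Zfp57 RNA was lowest in the affected females. Zfp57 (Entrez 22715; GRCm38 chromosome 17, 37001163 to 37010729) had 46.3, 37.7, 33.5 and 35.1 CPM in affected females, against 88.7, 135, 84.0 and 57.0 CPM in control males and 101, 107 and 110 CPM in control females. Every affected female lay below every control, and control male 4 was the control nearest to them. The means were 38.1 ± 5.70 CPM in affected females (SD, n = 4), 91.1 ± 32.3 CPM in control males (n = 4) and 106 ± 4.91 CPM in control females (n = 3). The level in affected females was 2.79-fold lower than in control females (log2 fold change -1.48) and 2.39-fold lower than in control males (-1.26), values that stand as a description because they chose the gene. The control males spread widely, with a coefficient of variation of 35.5%, against 15.0% in affected females and 4.63% in control females. Between the control groups, which did not choose the gene, Zfp57 was not called in edgeR (control males against control females, log2 fold change -0.22, SE 0.20, adjusted p = 0.869). Of 10 alternatives that kept the groups whole or left out the pair above, limma voom with sample weights called it (-0.36, adjusted p = 0.0433).

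**Figure D1:**
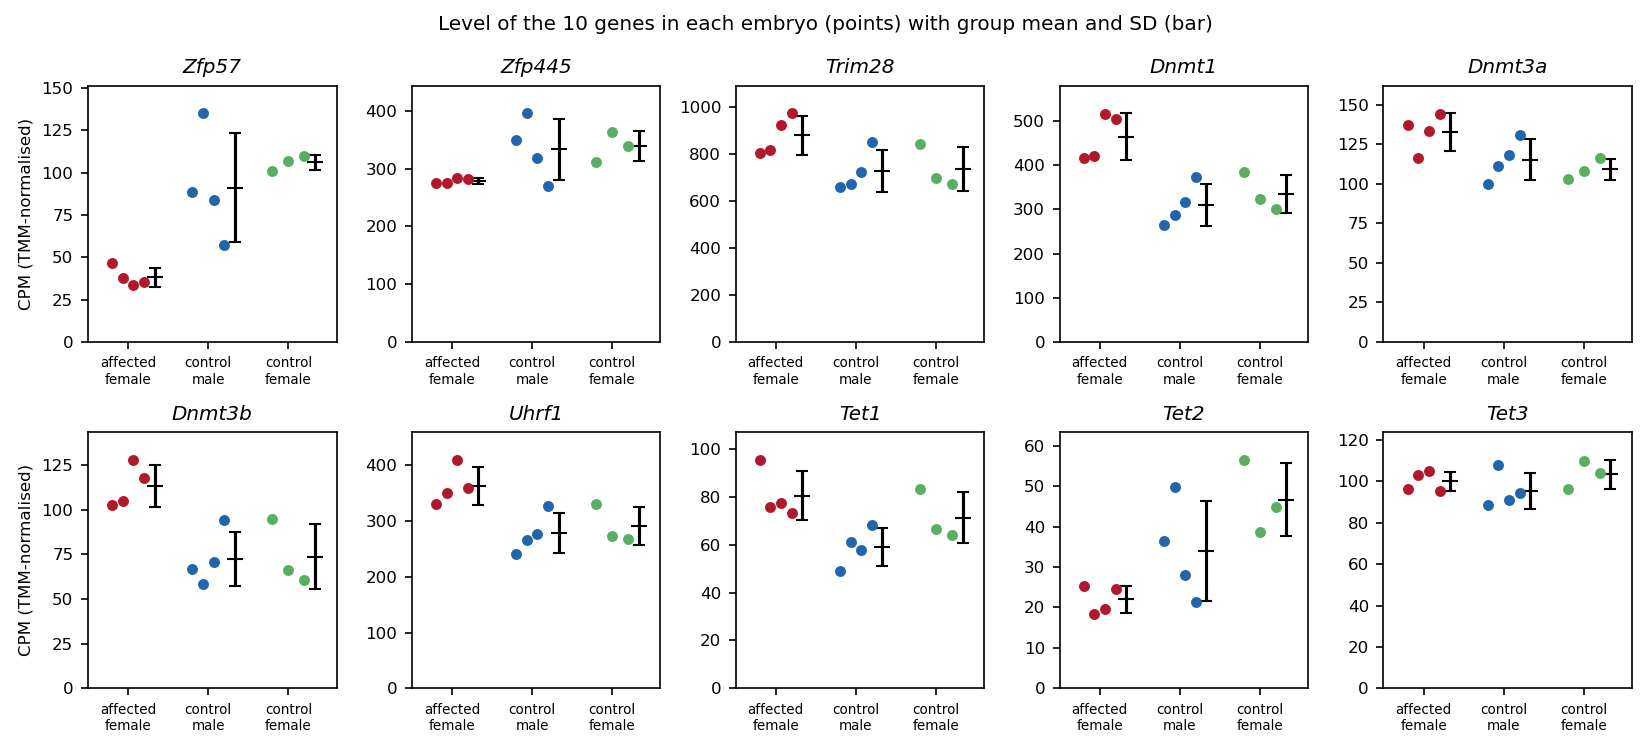
TMM-scaled CPM of each of the 10 genes (one panel per gene, linear axis), with a point per embryo and the group mean and SD for affected females (n = 4), control males (n = 4) and control females (n = 3). The affected females lie at 33.5 to 46.3 CPM for Zfp57, below all controls, and at 417 to 516 CPM for Dnmt1, above all controls.

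Zfp445, the other KRAB reader of imprinted control regions (chromosome 9, 122848910 to 122886851), had a narrow band in affected females. It had 275, 275, 284 and 282 CPM in affected females, against 350, 396, 318 and 271 CPM in control males and 312, 364 and 340 CPM in control females. Affected females lay below all control females and overlapped control male 4. The difference did not pass the test against either group: log2 fold change -0.28 (SE 0.11, adjusted p = 0.0691) against control females and -0.26 (SE 0.10, adjusted p = 0.0828) against control males. Without control female 1 and control male 4 these adjusted p-values were 0.00885 and 0.00312. The Zkscan7 gene overlaps Zfp445 and the counting's use of strand is unknown, so these genes may share reads.

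Trim28, the corepressor that both zinc finger proteins recruit (chromosome 7, 13024152 to 13031032), had the highest counts of the 10 genes. It had 801, 817, 923 and 971 CPM in affected females, against 659, 672, 721 and 851 CPM in control males and 842, 695 and 669 CPM in control females. The groups overlapped, and control male 4 and control female 1 were the highest controls. The log2 fold change was 0.26 (SE 0.12, adjusted p = 0.121) against control females and 0.27 (SE 0.11, adjusted p = 0.0891) against control males, neither called. Without control female 1 and control male 4 it was 0.37 (adjusted p = 0.00816) and 0.36 (adjusted p = 0.00359).

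Dnmt1 and Uhrf1, which copy methylation after replication, were higher in affected females. Dnmt1 (chromosome 9, 20907206 to 20959888), the maintenance methyltransferase, had 417, 421, 516 and 505 CPM in affected females, against 264, 288, 317 and 373 CPM in control males and 384, 324 and 300 CPM in control females. No affected female overlapped a control. Dnmt1 rose against control males (log2 fold change 0.58, SE 0.12, adjusted p = 0.0102) and against control females (0.47, SE 0.13, adjusted p = 0.0179). Against control males the call held in all 8 fits that left out an embryo of these groups. Against control females it was lost without affected female 3, affected female 4, control female 2 or control female 3 (adjusted p of 0.0674, 0.055, 0.0693 and 0.0899).

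Uhrf1 (chromosome 17, 56303337 to 56323486), which reads hemimethylated CpGs and recruits Dnmt1, had 331, 350, 410 and 360 CPM in affected females, against 242, 267, 277 and 328 CPM in control males and 330, 274 and 268 CPM in control females. Affected females lay above all controls, though affected female 1 and control female 1 were close at 331 and 330 CPM. Uhrf1 rose against control males (log2 fold change 0.38, SE 0.11, adjusted p = 0.0252). Against control females the log2 fold change was 0.32 (SE 0.12) with an adjusted p just above the threshold, so it was not called, and without control female 1 the adjusted p was 0.0193. The call against control males was lost without affected female 3 or 4 or control male 1, 2 or 3, with adjusted p-values of 0.0999, 0.0599, 0.0919, 0.0643 and 0.0631.

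Of the de novo methyltransferases, Dnmt3b rose in both comparisons of affected females. Dnmt3b (chromosome 2, 153649411 to 153687730) had 103, 105, 128 and 118 CPM in affected females, against 67.0, 58.7, 70.7 and 94.2 CPM in control males and 94.8, 66.1 and 60.6 CPM in control females. Affected females lay above all controls, and control female 1 and control male 4 were the highest controls. The log2 fold change was 0.63 (SE 0.16, adjusted p = 0.0133) against control females, a 1.54-fold rise, and 0.65 (SE 0.15, adjusted p = 0.0133) against control males, a 1.56-fold rise. The call was lost without affected female 3, control female 2 or control female 3 in the first comparison (adjusted p of 0.0503, 0.0634 and 0.0734) and without affected female 3 or control male 1 in the second (0.0597 and 0.0516).

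Dnmt3a (chromosome 12, 3801559 to 3914443), the other de novo enzyme, had 137, 116, 133 and 144 CPM in affected females, against 100, 111, 118 and 131 CPM in control males and 103, 108 and 116 CPM in control females. The groups overlapped in both comparisons, affected female 2 and control female 3 both having 116 CPM. Dnmt3a was called at the threshold against control females (log2 fold change 0.28, SE 0.10, adjusted p = 0.0497) and was not called against control males (0.20, SE 0.09, adjusted p = 0.128). The first call held in 1 of 7 fits that left out an embryo, the one without affected female 2, and the adjusted p reached 0.142 without affected female 4. Dnmt3aos, an antisense gene, overlaps Dnmt3a, and without a known strand setting their reads cannot be told apart. Annotated genes also overlap Trim28 (Gm31649), Dnmt1 (Mir7081), Tet1 (Gm51805) and Tet3 (Mir6374 and B230319C09Rik), and these may share reads as well. The ratio of Dnmt3b to Dnmt3a per length was 1.72 to 2.21 in affected females, against 1.21 to 1.63 in control males and 1.19 to 2.10 in control females. All affected females had a higher ratio than all control males, while they overlapped control female 1.

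**Figure D2:**
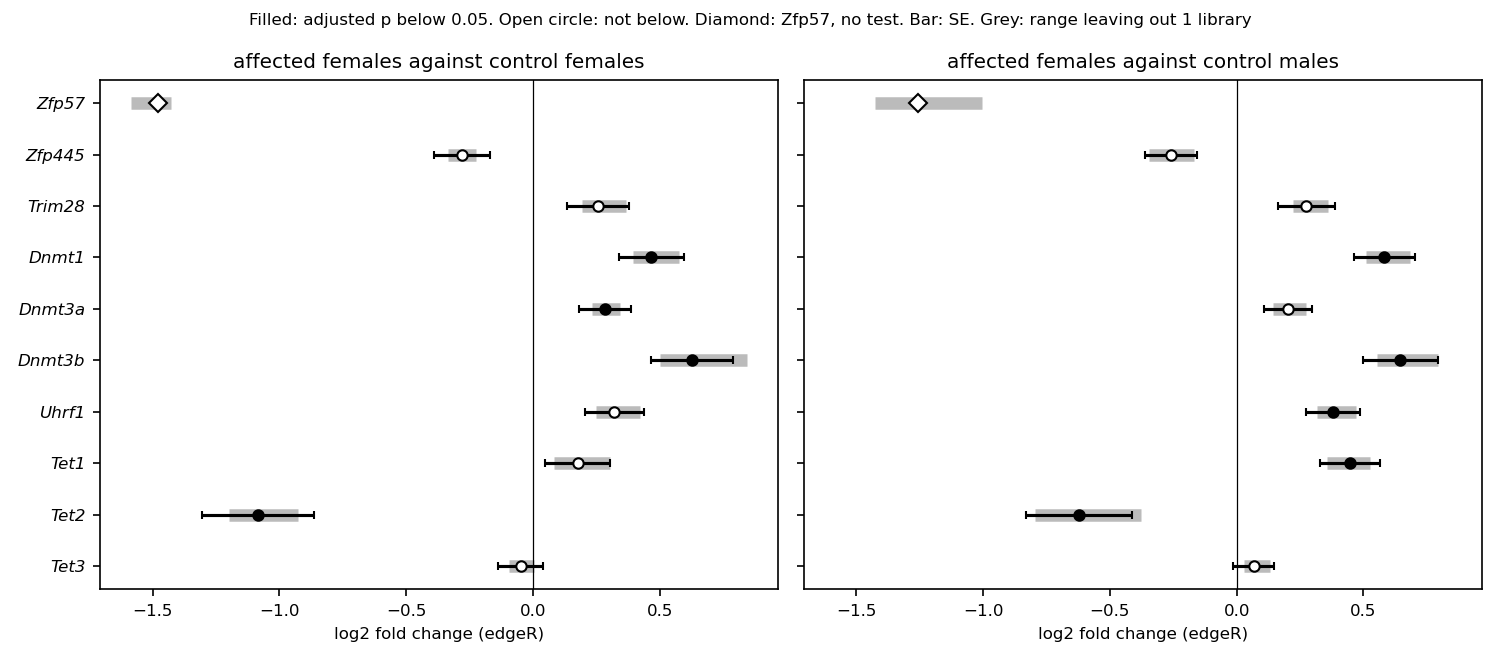
Log2 fold change of each of the 10 genes for affected females against control females and against control males. Bars give the SE and grey bars the range when each embryo is left out. Filled circles have an adjusted p under 0.05, open circles do not, and the diamond is Zfp57 in the comparisons of affected females, shown with no test. Dnmt3b lies at 0.63 and 0.65 and Tet2 at -1.08 and -0.62 in the first and second comparisons.

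The Tet genes, whose enzymes oxidise methylcytosine, did not move together. Tet2 (chromosome 3, 133463677 to 133545136) had 25.3, 18.4, 19.7 and 24.5 CPM in affected females, against 36.5, 49.9, 28.0 and 21.3 CPM in control males and 56.5, 38.7 and 44.9 CPM in control females. Affected females lay below all control females, while control male 4 lay among them. Tet2 fell against control females (log2 fold change -1.08, SE 0.22, adjusted p = 0.00495), to a level 2.12-fold lower, and this call held in all 7 fits that left out an embryo. Against control males the fall was called at the threshold (-0.62, SE 0.21, adjusted p = 0.0476). It was lost without any 1 embryo of these groups except control male 4, with adjusted p from 0.0571 without control male 3 to 0.168 without control male 2.

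Tet1 (chromosome 10, 62804570 to 62887469) had 95.4, 75.6, 77.6 and 73.1 CPM in affected females, against 48.8, 61.3, 57.6 and 68.1 CPM in control males and 83.4, 66.6 and 64.0 CPM in control females. Affected females lay above all control males and overlapped control female 1. Tet1 rose against control males (log2 fold change 0.45, SE 0.12, adjusted p = 0.0204) and was not called against control females (0.18, SE 0.13, adjusted p = 0.301). The call was lost without affected female 1 or 3 or control male 1 or 3 (adjusted p of 0.0553, 0.0617, 0.0751 and 0.0537). Tet3 (chromosome 6, 83362373 to 83457208) had 96.3, 103, 105 and 95.5 CPM in affected females, against 88.4, 108, 91.0 and 94.2 CPM in control males and 96.1, 110 and 104 CPM in control females. These ranges overlapped, with log2 fold changes of -0.05 (SE 0.09, adjusted p = 0.709) against control females and 0.07 (SE 0.08, adjusted p = 0.573) against control males. The ratio of Tet2 to Tet1 per length was 0.373 to 0.514 in affected females, against 0.479 to 1.25 in control males and 0.891 to 1.08 in control females. Affected females lay below every control female and overlapped control male 4.

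Per length, Trim28 was the most abundant of the 10 transcripts in every group, and Tet2 the least abundant in affected females. RPKM (CPM per kilobase of the deposited gene length) of Trim28 was 271 ± 25.4 in affected females, 224 ± 27.1 in control males and 227 ± 28.8 in control females (SD, n = 4, 4 and 3 here and below). Uhrf1 (99.4 ± 9.19 RPKM in affected females) and Dnmt1 (73.8 ± 8.40) came next, followed by Zfp445 (45.1 ± 0.713) and Dnmt3b (26.3 ± 2.73). Dnmt3a and Zfp57, at 13.5 ± 1.24 and 11.8 ± 1.77 RPKM in affected females, lay within their summed SDs of each other. Tet3 (9.17 ± 0.442 RPKM), Tet1 (5.71 ± 0.721) and Tet2 (2.39 ± 0.376) closed the order in affected females. The level of Zfp57, which chose the gene, was 28.2 ± 10.0 RPKM in control males and 32.9 ± 1.52 RPKM in control females, beside 16.8 ± 3.52 and 17.1 ± 4.25 RPKM of Dnmt3b in these groups. It lay above Dnmt3b beyond the summed SDs in control females and within them in control males. Tet2 (3.70 ± 1.35 RPKM in control males, 5.08 ± 0.982 in control females) and Tet1 (4.19 ± 0.570 and 5.06 ± 0.748) lay within their summed SDs of each other in both control groups. The ratio of Uhrf1 to Dnmt1 was 1.23 to 1.44 in affected females, against 1.51 to 1.60 in control males and 1.46 to 1.54 in control females, so that every affected female lay below every control.

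**Figure D3:**
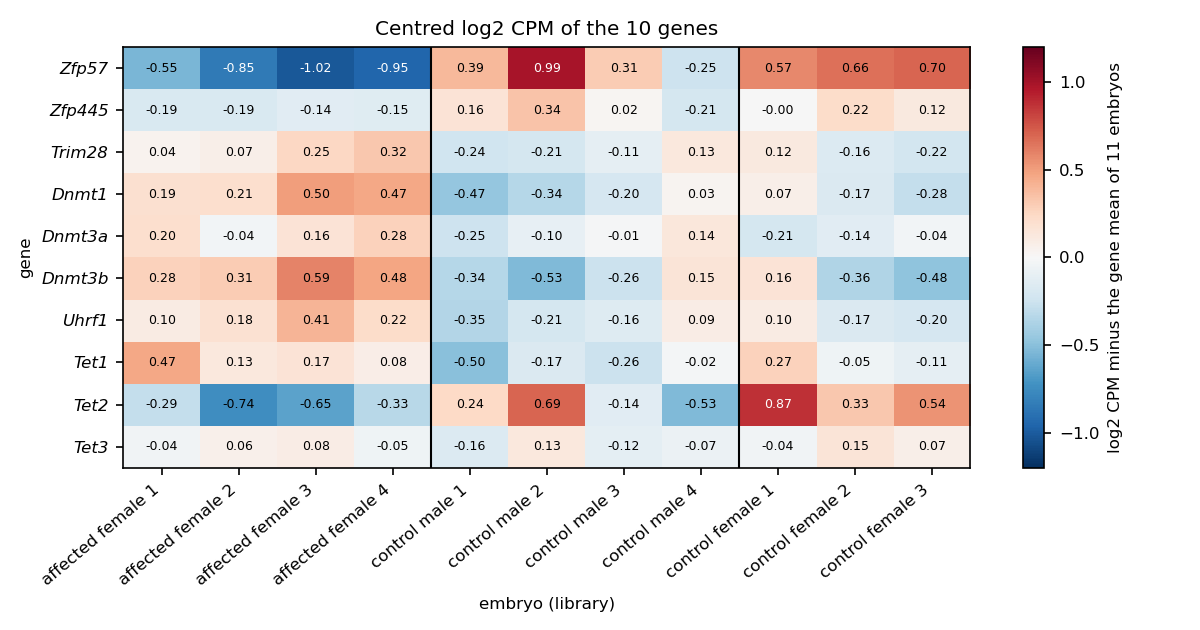
Log2 CPM of each of the 10 genes minus its mean over the 11 embryos, with affected females at the left, then control males and control females. Zfp57, Zfp445 and Tet2 are low and Dnmt1, Dnmt3b and Uhrf1 high in the affected females; control male 4 and, for Dnmt1, Dnmt3b and Uhrf1, control female 1 lie toward the affected females.

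Of the 9 genes other than Zfp57, 4 were called for affected against control females: Dnmt1, Dnmt3a and Dnmt3b rose and Tet2 fell. Of all genes tested, 28.0% were called in that comparison. Against control males 5 were called, with Dnmt1, Dnmt3b, Uhrf1 and Tet1 higher and Tet2 lower, where 20.2% of all genes were called. The median log2 fold change of the 9 genes was 0.26 against control females and 0.27 against control males, beside medians of -0.0049 and -0.0179 over all genes tested. Unadjusted p-values under 0.05 were found in edgeR for 6 of the 9 against control females and 8 against control males, beside 42.4% and 37.3% of all genes. Ranges did not overlap for 5 of the 9 against control females (Dnmt1, Dnmt3b and Uhrf1 above, Zfp445 and Tet2 below), where 40.2% of all genes had ranges that did not overlap. Against control males this held for 4 of the 9 (Dnmt1, Dnmt3b, Uhrf1 and Tet1, all above), where the share of all genes was 19.5%. The comparisons share the affected libraries and are not independent of each other. The number called was 1 without affected female 3, control female 2 or control female 3 against control females, 2 without affected female 4 and 6 without control female 1. Against control males it was 1 without affected female 3 or control male 1, 2 without control male 3, 3 without affected female 1, affected female 4 or control male 2, and 8 without control male 4. In these fits, in the order given, 1967, 1924, 1663, 2605 and 4579 of all genes were called against control females, beside 4073 with all embryos. Against control males the all-gene calls were 361, 658, 1470, 2065, 1174, 1132 and 5140, beside 2940 with all embryos. Without control female 1 and control male 4 together, 7 of the 9 genes were called against control females and 8 against control males, while the number called among all genes also grew, to 5711 against control females and 6014 against control males.

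Between control males and control females, which differ in sex and in p53 genotype, none of the 10 genes was called in edgeR, Zfp57 included, where 0.144% of all genes were called. Of the 9 genes other than Zfp57, 1 had an unadjusted p under 0.05, beside 6.13% of all genes. It was Tet1, whose log2 fold change was -0.27 (SE 0.13, adjusted p = 0.804 in edgeR). DESeq2 called none of the 10, and limma voom with sample weights called Zfp57, Tet2 and Tet3. For Tet2 the edgeR log2 fold change was -0.46 (SE 0.22, adjusted p = 0.804). The values of the other 7 genes lay between -0.11 and 0.08, and all 10 genes had overlapping ranges, where 5.54% of all genes did not overlap.

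Zfp57 lies in the distal major histocompatibility region, and its neighbours did not share its pattern throughout. Gabbr1, a GABA-B receptor subunit that starts 44.8 kb from Zfp57 (chromosome 17, 37045966 to 37074305), had 35.5, 34.9, 31.9 and 29.8 CPM in affected females, against 60.6, 84.5, 49.9 and 32.8 CPM in control males and 67.8, 69.0 and 65.7 CPM in control females. It fell against control females (log2 fold change -1.03, SE 0.21, adjusted p = 0.00462) and against control males (-0.78, SE 0.19, adjusted p = 0.0174), among which control male 4 lay within the affected range. The call against control males was lost without affected female 3, affected female 4 or control male 1 (adjusted p of 0.0622, 0.0503 and 0.0581). On the other side, Znrd1, an RNA polymerase I subunit 46.8 kb away, had a log2 fold change of -0.07 against control females (adjusted p = 0.624), and the antisense gene Znrd1as had 0.26 (adjusted p = 0.197). H2-M5, a class I-like gene 17.4 kb away, was near the detection limit at 0.616 to 2.49 CPM over all libraries and was not called (log2 fold change -0.94, adjusted p = 0.0953). Beyond Gabbr1, the next tested genes, Rhag and 9130008F23Rik, lay 3810 and 3874 kb away and were not called in either comparison. The Rhag value against control females rested on control female 1: it was -0.68 with all embryos and -1.17 without that one, when it was called (adjusted p = 0.0012).

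**Figure D4:**
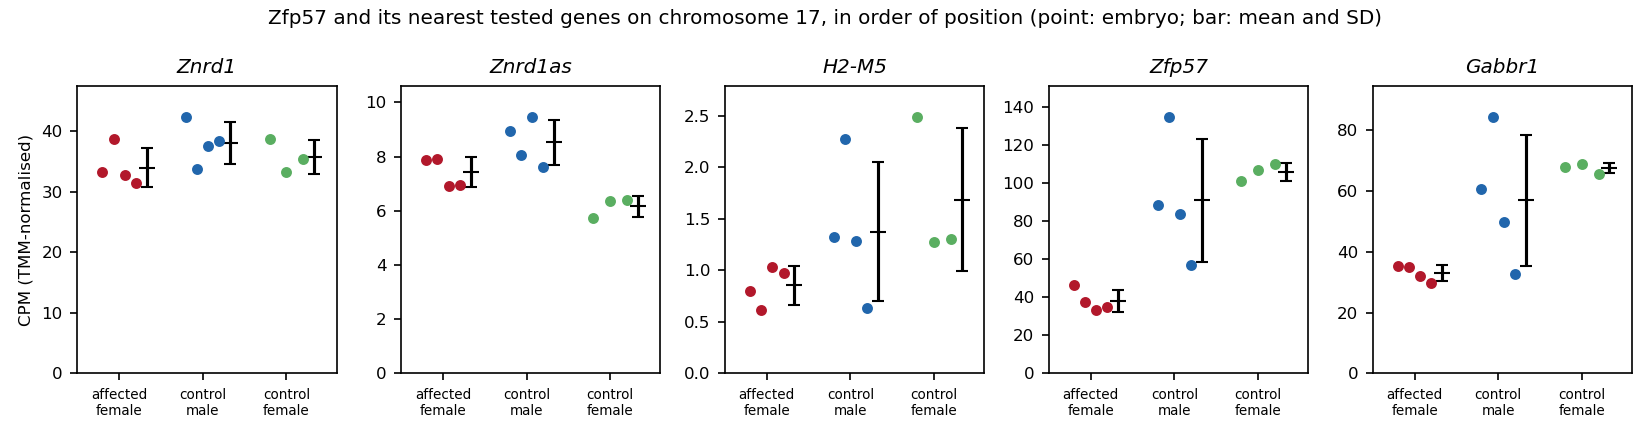
TMM-scaled CPM on a linear axis of Zfp57 and its tested neighbours within 50 kb, in their order along the chromosome. A point stands for an embryo, in 4 affected females, 4 control males and 3 control females. Zfp57 and Gabbr1 lie lower in affected females, with control male 4 at 57.0 and 32.8 CPM, and Znrd1 overlaps between the groups.

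Among the 11506 genes whose average log2 CPM reached 2, those whose log2 CPM followed Zfp57 most closely over the 11 embryos were Birc2, Slc2a4rg-ps, Slc22a17, 1600020E01Rik and Gpc2, with Pearson correlations of 0.984 to 0.989. These correlations are a description over embryos that fall into groups, and all genes of a library share its depth. Birc2, which encodes an inhibitor of apoptosis protein, had 48.4, 43.4, 38.6 and 38.5 CPM in affected females, against 65.8, 78.2, 59.4 and 51.2 CPM in control males and 70.4, 70.3 and 66.7 CPM in control females. Its order of embryos within the control males was that of Zfp57, with replicate 2 highest and replicate 4 lowest, which adds nothing to the correlation that picked it. Gpc2, a glypican of developing neurons, had 38.2 to 54.2 CPM in affected females, against 51.7 to 124 CPM in control males and 86.2 to 109 CPM in control females. The most opposite patterns were those of Rtcb, an RNA ligase (correlation -0.99), Grb7, an adaptor of receptor tyrosine kinases (-0.99), and Diaph3, a formin (-0.983).

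Markers of some cell types also differed between affected females and controls, in data where 28.0% of all genes were called against control females and 20.2% against control males. Of 19 early neuron genes tested, 12 fell and none rose against control females and likewise against control males, and their summed level was 283 to 346 CPM in affected females, 404 to 610 CPM in control males and 337 to 615 CPM in control females. Surface ectoderm genes rose, 11 of 12 against control females and 9 of 12 against control males, with sums of 329 to 374 CPM in affected females, 188 to 268 CPM in control males and 171 to 304 CPM in control females. Of 8 neural crest genes, 6 rose against control females and 2 against control males, with sums of 325 to 394 CPM in affected females, 254 to 297 CPM in control males and 223 to 250 CPM in control females. Of 25 G1/S and S phase genes, with which Dnmt1 and Uhrf1 are known to be expressed, 14 rose and 1 fell against control females (median log2 fold change 0.28), and 7 rose and 1 fell against control males (median 0.17). Their sums were 4724 to 5407 CPM in affected females, 3872 to 4936 CPM in control males and 4013 to 4303 CPM in control females. Neural progenitor genes overlapped in sum (1336 to 1627 CPM in affected females, 1327 to 1694 in control males, 1329 to 1706 in control females), with 2 of 12 higher and 3 lower against control females and 1 lower against control males. In control female 1 the early neuron genes lay low (median -0.33 on the log2 scale, relative to the mean of each gene over the 11 embryos), while Zfp57 was at 101 CPM and Tet2 at 56.5 CPM, the highest Tet2 level of all embryos. That is a single embryo, which also stood apart in Hspa1b. In control females 2 and 3 the median was 0.49 and 0.58, with Zfp57 at 107 and 110 CPM and Tet2 at 38.7 and 44.9 CPM. The part of cell makeup and cell cycle in the results of the 10 genes was not tested.

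Several of these marker counts moved when single embryos were left out, and calls among all genes moved in the same fits. Against control females, all-gene calls were 3372 without affected female 1, 1967 without affected female 3 and 2605 without affected female 4. They were 1924 without control female 2 and 1663 without control female 3. Against control males they were 361 without affected female 3 and 1174 without affected female 4. They were 658, 1132 and 5140 without control male 1, 2 and 4 in turn. Early neuron genes called lower against control males numbered 3 without affected female 3 and 7 without control male 2. Surface ectoderm genes called higher against control females numbered 7 without affected female 1, 6 without affected female 3 and 4 without control female 2 or 3, and against control males 1 without affected female 3, 4 without control male 1 and 5 without affected female 4 or control male 2. G1/S genes called higher against control females numbered 5 without affected female 3, affected female 4 or control female 2, and 4 without control female 3, while against control males they numbered from 1 without affected female 3 or control male 1 to 14 without control male 4. Neural crest genes called higher against control females numbered 3 without affected female 1 or 4 and 2 without control female 2 or 3, and against control males 1 without affected female 3 or control male 2 and 5 without control male 4.

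Markers of further cell types were called in smaller numbers. Epiblast and germ cell markers, where Dnmt3b and Tet1 are known to be abundant, had 3 of 12 genes tested, of which 2 rose against control females and 1 against control males, with sums of 96.2 to 116 CPM in affected females, 78.4 to 87.2 CPM in control males and 74.4 to 85.7 CPM in control females. Head mesenchyme had 2 of 9 genes higher against control females and 1 against control males. Of 8 endothelial genes, 1 fell against control females and none was called against control males in edgeR. With 1 embryo left out, epiblast and germ cell genes called higher numbered 0 to 3 against control females and 0 to 2 against control males, head mesenchyme genes 1 to 3 and 0 to 3, and endothelial genes called lower 0 to 2 and 0 to 1. No primitive erythroid gene of 9 was called in edgeR in either comparison, and 6 were called lower against control females without control female 1, whose library held the lowest blood sum (569 CPM, against up to 4458 CPM in the other control females). None of these marker lists had a marker at 0 in all libraries.

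The downstream and partner genes of methylation were described from lists chosen with earlier results of these data known. Among 33 imprinted genes with a germline control region, 4 rose and 11 fell against control females (median log2 fold change -0.12), and 5 rose and 6 fell against control males (median -0.11). For this list and those that follow, the background is the 28.0% of all genes called against control females and the 20.2% called against control males. These shares are for all embryos. Where single embryos were left out, calls among all genes moved too, and the background is the all-gene calls given above. Plagl1, a growth regulator expressed from the paternal copy, had 95.0, 82.6, 82.9 and 128 CPM in affected females, against 148, 198, 146 and 171 CPM in control males and 156, 177 and 219 CPM in control females. Every affected female lay below every control, and Plagl1 fell against control females (log2 fold change -0.92, SE 0.16, adjusted p = 0.00272) and control males (-0.77, adjusted p = 0.00907).

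Meg3, a maternally expressed long noncoding RNA, had 181, 143, 156 and 142 CPM in affected females, against 331, 440, 254 and 154 CPM in control males and 336, 384 and 369 CPM in control females. Affected females lay below all control females, and control male 4 lay among them. Meg3 fell against control females (log2 fold change -1.22, SE 0.23, adjusted p = 0.00372) and control males (-0.92, SE 0.22, adjusted p = 0.0140), the second call being lost without affected female 3 or control male 1 (adjusted p of 0.0539 and 0.0521). Dlk1, a Notch-like ligand of the same imprinted cluster that is expressed from the paternal copy, fell as well, by 0.83 on the log2 scale against control females (adjusted p = 0.00945) and against control males (adjusted p = 0.0120). So did Nnat, a paternally expressed gene, by 0.52 (adjusted p = 0.00809 and 0.0110). The Dlk1 and Nnat calls were lost without control female 3 (adjusted p of 0.0503 and 0.0533) or without affected female 3 against control males (0.0501 and 0.0512).

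Kcnq1ot1, the paternally expressed RNA of another cluster, had 20.2, 17.4, 12.6 and 11.6 CPM in affected females, against 23.0, 28.0, 19.8 and 12.4 CPM in control males and 82.7, 30.6 and 32.1 CPM in control females. Control female 1 was the highest and control male 4 lay within the affected range. Kcnq1ot1 fell against control females (log2 fold change -1.64, SE 0.32, adjusted p = 0.00436), with -1.02 and the call kept without control female 1, and was not called against control males (-0.43, adjusted p = 0.331). Ndn, which is paternally expressed, rose against control females (0.36, SE 0.08, adjusted p = 0.00598), and Mest, also paternally expressed, had a log2 fold change of 0.01 (adjusted p = 0.939). Imprinted genes called lower against control females numbered 7 without control female 2 and 5 without control female 3. Against control males they numbered 1 without affected female 3, 3 without control male 1 and 11 without control male 4. Those called higher numbered 2 without affected female 3, affected female 4, control female 2 or control female 3, and 7 without control female 1, against control females. Against control males they ranged from 0 without affected female 3 or control male 1 to 10 without control male 4.

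Of 39 KRAB zinc finger and heterochromatin partners of Trim28, 7 rose and 3 fell against control females (median 0.11), and 6 rose and 1 fell against control males (median 0.08), near the 28.0% and 20.2% of all genes called. Atf7ip, a binding partner of the histone methyltransferase Setdb1, had 102, 112, 129 and 136 CPM in affected females, against 76.1, 85.6, 84.4 and 98.1 CPM in control males and 72.7, 97.1 and 79.5 CPM in control females. It lay above all controls and rose against control females (log2 fold change 0.53, SE 0.12, adjusted p = 0.00828) and control males (0.48, adjusted p = 0.0136), the second call being lost without affected female 3 or control male 1 (adjusted p of 0.0597 and 0.055). Chd3, a chromatin remodeller of the NuRD complex, fell against control females (-0.59, SE 0.10, adjusted p = 0.00268) and was not called against control males (-0.23, SE 0.09, adjusted p = 0.0853). Setdb1, the enzyme that Trim28 brings to its targets, was not called, with -0.01 (adjusted p = 0.946) against control females. The number called higher against control females was 2 without affected female 3 and 3 without affected female 4, control female 2 or control female 3. Against control males it ranged from 0 without affected female 3 or control male 1 to 10 without control male 4.

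Of 21 cofactors and readers of methylation, 2 rose and 1 fell against control females (median 0.10). Against control males 1 rose and 1 fell (median 0.10). In edgeR with all embryos these were fewer than the 28.0% and 20.2% of all genes called would give. The counts moved with the setting. Voom with sample weights called 10 higher and 5 lower against control females, where 7639 of all genes were called. Without control male 4, 7 were higher and 4 lower against control males, where 5140 of all genes were called. Without control male 1 these were 0 and 0. Zbtb33 (Kaiso), an X-linked reader of methylated CpGs, rose against control females (log2 fold change 0.50, SE 0.12, adjusted p = 0.00887), as did Cdca7, a partner of the remodeller Hells (0.36, adjusted p = 0.0232), while Cxxc1, which binds unmethylated CpGs, fell (-0.29, adjusted p = 0.0226). Against control males Usp7, a deubiquitinase that binds Uhrf1 and Dnmt1, rose (0.30, SE 0.09, adjusted p = 0.0351) and Mbd4, a mismatch glycosylase, fell (-0.42, SE 0.12, adjusted p = 0.0308). Each of these 5 genes was called in 1 comparison only: Zbtb33 (0.27, adjusted p = 0.0755), Cdca7 (0.20, adjusted p = 0.139) and Cxxc1 (-0.18, adjusted p = 0.122) were not called against control males, nor Usp7 (0.18, adjusted p = 0.190) and Mbd4 (-0.35, adjusted p = 0.0630) against control females. Without control male 4, Zbtb33 and Cdca7 were called against control males as well (adjusted p of 0.0173 and 0.0346). The Zbtb33 call against control females held without any 1 embryo. Cdca7 was not called without affected female 3, control female 2 or control female 3 (adjusted p of 0.0785, 0.0932 and 0.0971), and Cxxc1 not without affected female 1 or control female 3 (0.0592 and 0.0777). Usp7 lost its call without affected female 3 or 4 or control male 1, 2 or 3 (adjusted p of 0.0851 to 0.106), and Mbd4 without affected female 2, 3 or 4 or control male 1 or 2 (0.0636 to 0.0919).

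Of 19 genes of active demethylation and base excision, which finish what the Tet enzymes begin, 3 rose and 3 fell against control females (median -0.03), and 1 rose and 1 fell against control males (median -0.06), beside 28.0% and 20.2% of all genes called. Neil3, a glycosylase, fell against control females (log2 fold change -0.81, SE 0.19, adjusted p = 0.00833), with 21.5 to 26.2 CPM in affected females and 35.9 to 47.3 CPM in control females. Parp1, which senses strand breaks, rose against control females (0.51, SE 0.15, adjusted p = 0.0225) and control males (0.48, adjusted p = 0.0270). Gadd45g, a stress-response adaptor, fell in both comparisons (-1.21, SE 0.36, adjusted p = 0.0244, and -1.24, adjusted p = 0.0230) at levels of 1.68 to 3.29 CPM in affected females, against 3.55 to 8.17 CPM in control males and 2.49 to 7.10 CPM in control females. The Neil3 call held without any 1 embryo. Against control males Neil3 was not called (-0.47, adjusted p = 0.0668), and was called without control male 4 (adjusted p = 0.00707). The Parp1 calls were lost without affected female 3 or 4, control female 2 or 3 (adjusted p of 0.0558 to 0.0969) or control male 1, 2 or 3 (0.0607 to 0.0971). The Gadd45g calls were lost without affected female 2 (against control females alone), affected female 3 or 4, control female 2 or 3 or control male 1 or 2, with adjusted p from 0.0532 to 0.131.

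Germline genes that methylation keeps silent in the soma had low counts. Of 20 such genes, 4 had enough counts to be tested, and Asz1 and Dpep3 had no count in any library. Tdrd1, a piRNA pathway gene, was called higher against control females (log2 fold change 1.16, SE 0.33, adjusted p = 0.0193), with a mean of 2.31 CPM in affected females and 1.03 CPM in control females, and was not called without control female 2 or control female 3 (adjusted p of 0.0503 and 0.0809). None of the 4 was called against control males in edgeR, and the median log2 fold change was 0.01 against control females and -0.24 against control males.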

How the data were processed

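Polyadenylated RNA from 11 embryo brains was isolated with an RNeasy micro kit, made into Illumina TruSeq libraries and sequenced on a HiSeq 2000, per the labels' protocols. The authors deposited raw counts per Entrez gene with gene lengths, made with featureCounts on mm10 per the submitters' processing notes, with aligner, use of strand and annotation not given in the sources used here. A joint table of all libraries repeated these counts and was not used. Symbols and positions came from a RefSeq table of GRCm38.p6, the assembly of mm10, for 25275 genes.

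Groups were taken from the sample titles. All 11 libraries entered 1 quasi-likelihood fit in edgeR 4.0.16 (R 4.3.3) with filterByExpr, TMM scaling and no factor besides group. Benjamini-Hochberg adjustment ran over 14542 genes, with a threshold of 0.05. The biological coefficient of variation was 11.9%. The SE is the log2 fold change divided by the square root of F, and log2 CPM used a prior count of 2. RPKM is TMM-scaled CPM per kilobase of the deposited length. The procedure was tested on simulated counts. Within groups, chi-square per degree of freedom between libraries was 2.73 to 31.6, so none was counted as a duplicate. Replicate numbers did not pair the embryos: deviations of same-numbered libraries correlated at -0.136 to 0.178.

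The genes described and all lists were chosen with earlier results of these data known. Beyond the 10 genes, the leading called genes of each list by adjusted p (at most 4), the nearest tested neighbours of Zfp57 on either side and the genes most like or opposite to Zfp57 were taken by rule, and some of them are given. Genes outside this rule (Setdb1, Mest, Hspa1b and the genotype checks) were chosen with their values seen. Alternatives were RLE factors, TMM from autosomal genes, other filters, DESeq2 1.42.0, limma 3.58.1 voom with sample weights, robust fitting, a fit of 2 groups, the replicate block, each embryo left out, and control female 1 with control male 4 left out. Counts over lists and further genes under these alternatives were added after the data were seen.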

Additional observations from a re-analysis of the deposited data

How the results depend on the processing

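Counts of called genes among the 9 other than Zfp57 moved with the embryos used and with the tool. With 1 embryo left out they were 1 to 6 for affected against control females and 1 to 8 for affected females against control males. For control males against control females they were 0. Without control female 1 and control male 4, a pair chosen for lying toward the affected females, they were 7, 8 and 0. With limma voom and sample weights they were 8, 8 and 2, and DESeq2 gave 6, 6 and 0. Over all genes, leaving out 1 embryo gave 1663 to 4579, 361 to 5140 and 18 to 35 calls in the 3 comparisons, beside 4073, 2940 and 21 with all. Voom gave 7639, 6397 and 1569 calls, DESeq2 gave 43 calls between the control groups, and leaving out control female 1 and control male 4 gave 6014 for affected females against control males. With the replicate block, 3, 5 and 0 of the 9 genes and 2875, 3418 and 21 of all genes were called, so the block lost the Dnmt3a call (adjusted p = 0.0878) and changed no other call of the 9; no embryo pairing is stated. That call against control females was also lost with RLE factors, autosomal TMM, no low-count filter or without control female 1 and control male 4 (adjusted p of 0.0506 to 0.0555), and Uhrf1 was gained there in 7 of 10 alternatives. Robust fitting lost the Tet2 call against control males (adjusted p = 0.0575). The log2 fold change of Zfp57 stayed negative in every setting, at -1.586 to -1.429 against control females and -1.427 to -1.006 against control males when 1 embryo was left out. Zfp57 was selected for its fall in these same embryos, so these values are a description and support no call. Signs turned where values lay near 0, between control males and control females: Trim28 0.046 and Dnmt3b 0.113 with voom, Zfp445 0.016 with the block, and Zfp445 0.012, Trim28 0.006, Dnmt3a -0.027 and Dnmt3b 0.049 without control female 1 and control male 4. With 1 embryo left out, these values spanned -0.117 to 0.066 for Zfp445, -0.104 to 0.09 for Trim28, -0.168 to 0.199 for Dnmt3b and -0.147 to 0.041 for Uhrf1. Tet3 against control females spanned -0.095 to 0.003. Against control males, Tdrd1 spanned -0.161 to 0.23 and had -0.08 with voom, and 9130008F23Rik, a neighbour of Zfp57, spanned -0.196 to 0.187. The cause of these shifts was not tested. Tet2 had the lowest counts of the 10 genes (179 to 484), and a few reads for germline genes limit the precision of the latter.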
